A study of Mus musculus with 3 samples.

Results

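This account covers 5 genes of the cone photoreceptor signalling cascade in mouse neural retina: the short-wave opsin gene Opn1sw, the cone transducin subunit genes Gnat2, Gnb3 and Gngt2, and the cone channel gene Cnga3. They were found by symbol, as the probe sets (groups of short probes for 1 transcript) to which the platform annotation gives that single gene symbol. Each gene had 1 probe set, so 5 of the 12422 gene probe sets on the array, or 5 of 8251 named genes, are described. The RNA came from neural retinas of Rp1-/- mice, a knockout of the gene for the photoreceptor protein Rp1, at postnatal day 10, in a mixed 129/SvEv and C57BL/6 background, collected between 1 and 2 pm. There were 3 arrays (U74Av2, 1 colour) in 1 group, each with a pool of retinas from 3 to 4 mice, and no array of another genotype was analysed here. All values below therefore describe mutant retina, and the differences are between pools, numbered 1 to 3 for reference. Nothing in the labels tells whether mice or litters were split between pools, so p-values measure only the spread between these RNA samples, which may be technical. No probe set was named Rp1, so the knockout was not checked from these data.

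Cones are the photoreceptors of daylight and colour vision. In their outer segments an opsin that has absorbed light activates the G protein cone transducin, which is made of an alpha, a beta and a gamma subunit. The alpha subunit then turns on a phosphodiesterase, cyclic GMP falls and the cyclic nucleotide-gated channel closes. Rods run the same steps with paralogous proteins, among them Gnat1, Gnb1, Gngt1 and the channel subunits Cnga1 and Cngb1. In mouse, cones are born before birth, far fewer in number than rods, and many cones make both the short-wave and the middle-wave opsin. Cone genes are controlled by the homeodomain factor Crx, which binds sites with a TAATC core. Nuclear receptors such as Rorb, Rxrg and the thyroid hormone receptor Thrb also control them, and bind sites built from the letters AGGTCA.

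The start regions of 3 of the 5 genes, Opn1sw, Gnat2 and Cnga3, were given in the RefSeq promoter table (build GRCm38.p6). They are shown, 1 for each gene, because only these members had an entry. Each is the 250 bases before the annotated start, 5′ to 3′ on the gene's strand, with matches on either strand in capitals: to TAATCC, the Crx core, to its variant with the letters TAATCT, and to the nuclear receptor element AGGTCA.
Opn1sw, chr6:29380514-29380763, minus strand: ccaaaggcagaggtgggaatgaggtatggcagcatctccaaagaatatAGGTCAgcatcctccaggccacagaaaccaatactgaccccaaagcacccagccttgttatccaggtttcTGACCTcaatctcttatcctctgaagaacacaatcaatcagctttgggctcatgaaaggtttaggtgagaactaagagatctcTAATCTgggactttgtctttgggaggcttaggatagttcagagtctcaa
Gnat2, chr3:108092816-108093065, plus strand: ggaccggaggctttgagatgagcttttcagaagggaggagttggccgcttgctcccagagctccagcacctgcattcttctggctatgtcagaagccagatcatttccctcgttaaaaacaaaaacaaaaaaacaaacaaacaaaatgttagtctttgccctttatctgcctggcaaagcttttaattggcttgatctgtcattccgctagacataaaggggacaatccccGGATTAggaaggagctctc
Cnga3, chr1:37218028-37218277, plus strand: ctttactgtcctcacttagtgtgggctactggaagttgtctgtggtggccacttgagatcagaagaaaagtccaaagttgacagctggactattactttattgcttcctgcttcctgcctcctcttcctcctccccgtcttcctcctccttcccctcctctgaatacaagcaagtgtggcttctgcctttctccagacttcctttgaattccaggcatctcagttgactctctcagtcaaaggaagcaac
The Opn1sw window held 1 forward TAATCT, 49 to 44 bases before the start, and 2 matches to AGGTCA, 1 forward at 202 to 197 bases and 1 in reverse complement at 132 to 127 bases. The Gnat2 window held 1 TAATCC in reverse complement, 19 to 14 bases before the start. Neither Cnga3 window (a second start lies downstream, at chr1:37218955-37219204 for its 250 bases) held any of the 3. No match overlapped another. Of all 32851 promoter windows of this length, 6.25% held TAATCC on either strand. The share was 7.31% for the variant TAATCT and 14.0% for the receptor element AGGTCA, so these letters occur in many genes, and a match describes the sequence and not a bound site.

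The short-wave opsin and the 3 transducin subunits were detected in every pool, and the channel subunit was in none. A gene was called detected where its signal lay above a background floor on all 3 arrays. The floor was the 90th percentile of 19 bacterial and yeast control probe sets that have no mouse target, and it came to 100.5, 124.8 and 120.4 signal units in pools 1, 2 and 3. Of the 5 genes 4 passed, against a background of 57.9% of all gene probe sets. Signals are in scaled intensity units, and signals of different probe sets cannot be read as relative amounts of transcript.

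Opn1sw (probe set 99395_at), which encodes the pigment of short-wave light, gave 1836.9 signal units in pool 1, 1697.3 in pool 2 and 2057.6 in pool 3, a mean of 1864 ± 182 (SD, n = 3). These were 18.3, 13.6 and 17.1 times the floor. Pool 3 was highest and pool 2 lowest, with 1.21-fold between them. Its SD on the log2 scale was 0.14, below the SD of 0.25 fitted for probe sets of its signal. Whether a gene varied more than others of like signal was tested with limma, and Opn1sw did not pass (adjusted p = 0.996).

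Gnat2 (probe set 98807_at), the alpha subunit that carries the signal to the phosphodiesterase, had 923.3, 1596.4 and 1146.7, a mean of 1222 ± 343 (SD, n = 3). Pool 2 was highest and pool 1 lowest, and all 3 pools lay at least 9.19 times above their floor. The range of 1.73-fold was the widest among the 4 detected members. Its log2 SD of 0.40 was above the 0.26 fitted for its signal, but the difference did not pass (limma, unadjusted p = 0.13, adjusted p = 0.987).

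Gnb3 (probe set 99238_at), the beta subunit, had 6586.4, 4756.8 and 6497, a mean of 5947 ± 1031 (SD, n = 3). Pools 1 and 3 were nearly level, and pool 2 was lowest, with 1.38-fold from pool 1. The log2 SD was 0.27 against a fitted 0.21, and it did not pass (limma, adjusted p = 0.987). Gnb3 is also made by ON bipolar cells, the interneurons that respond to light onset, so its signal in whole retina need not come from cones alone. Of 10 ON bipolar marker genes 5 were on the array under their symbol, and each of the 5 was detected by its brightest probe set. Their summed signals ran from 8768 in pool 1 to 9961 in pool 3. Gnao1 alone gave 4890.6 and 6227.2 in these pools, so the sums were mostly this 1 gene and do not measure ON bipolar content. The part of ON bipolar cells in the Gnb3 signal was not tested.

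Gngt2 (probe set 160893_at), the gamma subunit that anchors the transducin dimer to the membrane, had 741.2, 634.4 and 653.7, a mean of 676.4 ± 56.9 (SD, n = 3). It was the steadiest of the 4, with a range of 1.17-fold and a log2 SD of 0.12 against a fitted 0.28 (limma, adjusted p = 0.996). Pool 1 was highest, and pools 2 and 3 differed by 0.04 on the log2 scale. The signals were 7.38, 5.08 and 5.43 times the floor, the nearest to background of the detected members.

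Cnga3 (probe set 101706_at), the subunit that opens the cone channel to cyclic GMP, had 22.7, 32.4 and 43.8. All 3 values were under the floor, at 0.23, 0.26 and 0.36 of it, and they were also under the median control signals of 41.2, 60.9 and 45.7. Of the 19 control probe sets 11, 12 and 11 were brighter in pools 1, 2 and 3. On no array was a signal above the floor for 23.3% of gene probe sets, so Cnga3 shares this with many others. At these signals the pools have no order and no fold was computed. Only 1 probe set carried the symbol, so no second reading of Cnga3 could be set beside it.

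**Figure D1:**
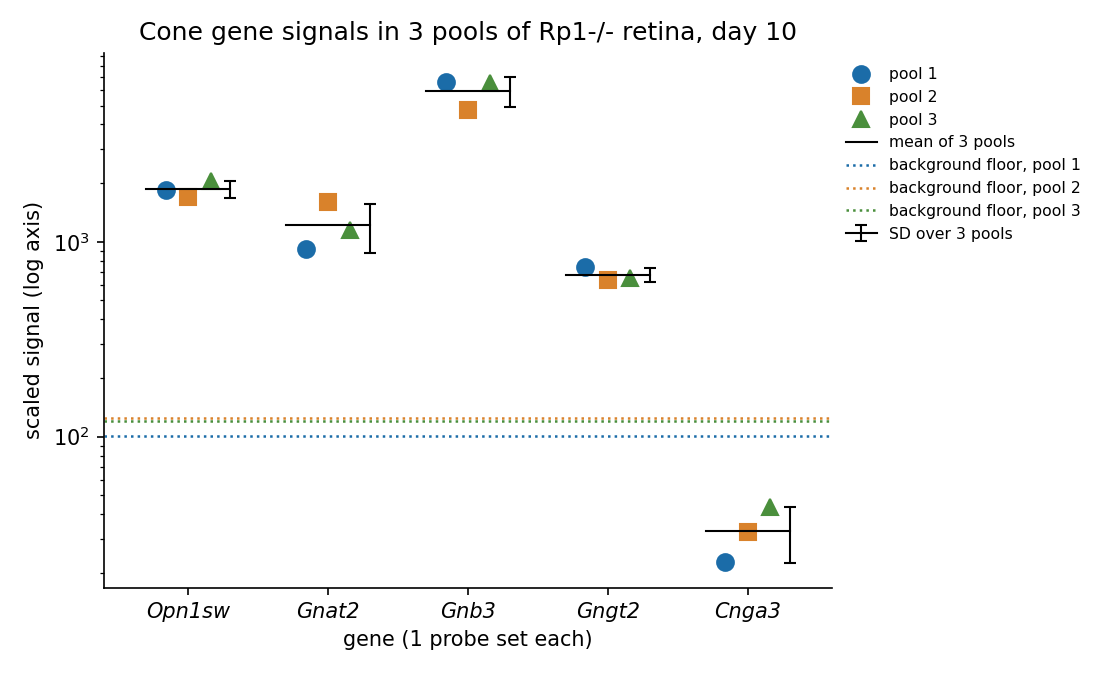
Scaled signal (log axis) of the 5 cone genes, 1 probe set each, in 3 pools of Rp1-/- retina at postnatal day 10; symbols are pools, black lines the means, bars the SD over 3 pools, and dotted lines the background floor of each pool. Opn1sw, Gnat2, Gnb3 and Gngt2 lie above all 3 floors, and Cnga3, at 22.7 to 43.8, lies under them.

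The test for variation between pools called no member. None of the 4 members tested was called (limma, adjusted p under 0.05), and none of the 4 had an unadjusted p under 0.05, the lowest being the 0.13 of Gnat2. Of the 8327 probe sets tested, those brighter on average than the floor, 18 (0.216%) were called. At the signals of these genes, 1 pool would have had to differ from 2 equal others by 3.16-fold for Gnb3, 3.74-fold for Opn1sw, 3.94-fold for Gnat2 and 4.40-fold for Gngt2 to be called. Smaller differences between pools were not detectable with 3 arrays.

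**Figure D2:**
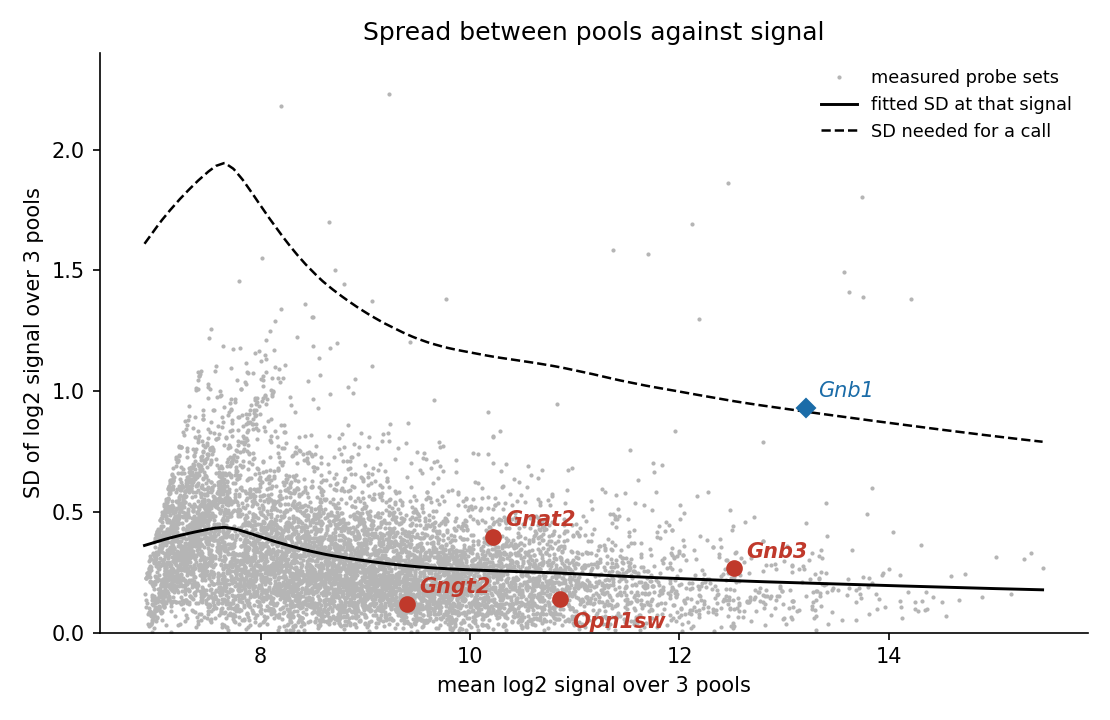
SD of log2 signal over 3 pools against the mean log2 signal, for all 8327 measured probe sets (grey), the 4 detected cone genes (red) and the rod transducin beta gene Gnb1 (blue diamond); the solid line is the SD fitted at each signal and the dashed line the SD needed for a call. The 4 cone genes lie far below the dashed line, with SDs of 0.12 to 0.40.

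Pair by pair, no member reached 2-fold between any 2 pools. The background was 6.24% of measured probe sets past 2-fold for pools 1 and 2, 6.92% for pools 1 and 3 and 5.1% for pools 2 and 3. At 1.5-fold, Gnat2 was past the mark for pools 1 and 2, with a log2 difference of -0.79 (pool 1 minus pool 2), where 24% of measured probe sets were. It was short of the mark for pools 1 and 3 (-0.31; background 22.6%) and for pools 2 and 3 (0.48; background 20.3%). The other 3 detected members stayed within 1.5-fold in every pair, with Gnb3 at 0.47, 0.02 and -0.45 for pools 1 minus 2, 1 minus 3 and 2 minus 3. With 1 array a pool, these differences have no replicate and no test.

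The subunits of cone transducin did not all share an order of pools. Gnat2 was highest in pool 2, while Gnb3 and Gngt2 were lowest there, as was Opn1sw. Gnb3 and Gngt2 had the same order, with pool 1 highest and pool 3 between. Some steps were small, at log2 0.02 for Gnb3 (pool 1 minus pool 3) and -0.04 for Gngt2 (pool 2 minus pool 3), and the orders were not tested. Among measured probe sets 33.7% were highest and 33.4% lowest in pool 2. The ratio of Gnat2 to Gnb3, which does not depend on how an array is scaled as a whole, changed 2.39-fold over the pools, and the ratio of Gnat2 to Gngt2 changed 2.02-fold. The ratio of Gnb3 to Gngt2 changed 1.33-fold and that of Gngt2 to Opn1sw 1.27-fold. How far ratios of other probe sets changed over the pools was not measured, so the ratio changes here and below have no background. The order of the pools was the same for each of the 4 genes after quantile normalization and after centring the arrays on their medians.

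The rod counterparts of 3 members were on the array. Gnat1, the rod transducin alpha subunit, had 3228.9, 6226.7 and 3765.6 in pools 1, 2 and 3. This is the order of pools seen for Gnat2, and the ratio of Gnat2 to Gnat1 changed 1.19-fold. Cnga1, the rod channel subunit, had 938.4, 1556.4 and 1182.3, again with pool 2 highest, and was above the floor in all pools, unlike Cnga3. Neither gene passed the test (limma, adjusted p = 0.832 for Gnat1 and 0.987 for Cnga1). Gnb1, the rod transducin beta subunit, had 5367.5, 8246 and 19075.3 by its brightest probe set and was the 1 rod counterpart called (limma, adjusted p = 0.0422). Its pool order differed from that of Gnb3, and the ratio of Gnb3 to Gnb1 changed 3.60-fold over the pools. Each Gnb1 probe set was highest in pool 3, whereas Gnat1 and Cnga1 were highest in pool 2. The part of rods in the Gnb1 signal was not tested, so this ratio cannot be read as cone against rod. The Gnb1 call was lost in 6 of 11 alternatives, among them quantile normalization (limma, adjusted p = 0.0513) and leaving out pool 3 (0.974), with adjusted p from 2.82e-06 to 0.981 over the 11, and the other Gnb1 probe sets, at 0.176 and 0.587 (limma, adjusted p), were not called with all pools. Probe sets for Gngt1 and Cngb1 were not named in the annotation, so the gamma subunit has no counterpart here.

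**Figure D3:**
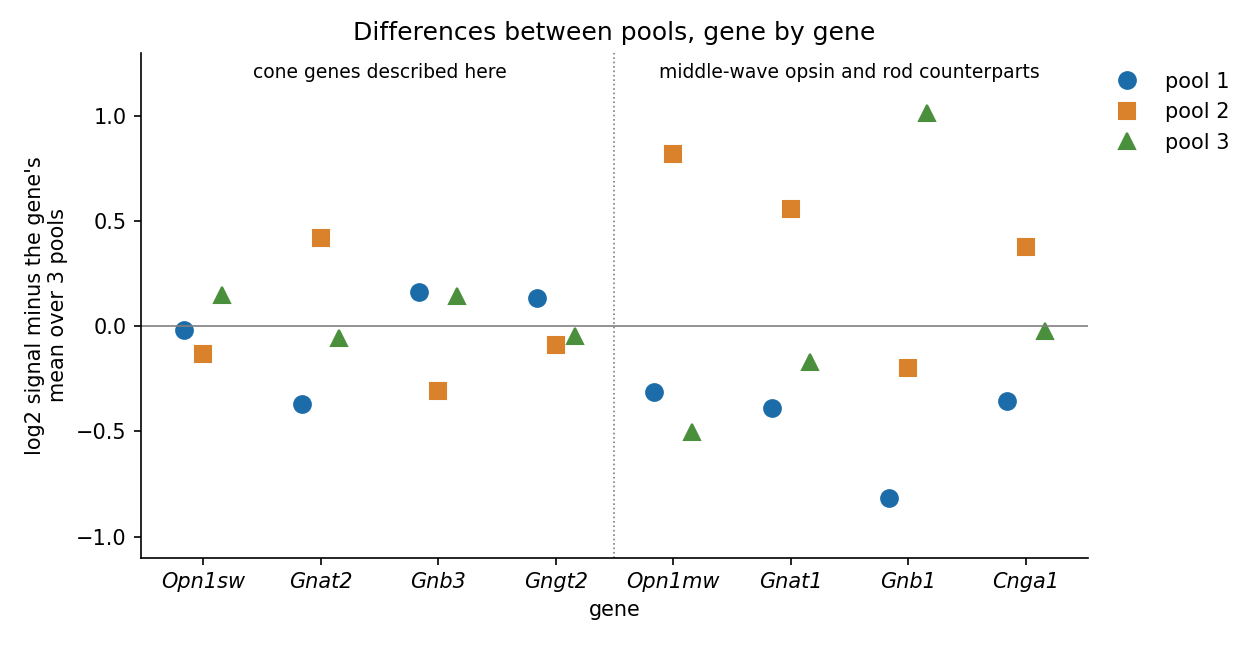
Log2 signal minus the gene's own mean over 3 pools, for the 4 detected cone genes (left of the dotted line) and the middle-wave opsin gene Opn1mw with 3 rod counterparts (right); symbols are pools. Gnat2, Opn1mw, Gnat1 and Cnga1 are highest in pool 2, Gnb1 is highest in pool 3, and Opn1sw, Gnb3 and Gngt2 are lowest in pool 2.

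The other genes of the cone pathway were also detected where they had a probe set. Of 17 such genes 7 were named in the annotation. All 7 were above the floor in every pool by their brightest probe set, against 57.9% of all gene probe sets. None of the 7 was called (limma, adjusted p of 0.833 or more, 1 with an unadjusted p under 0.05). Another Pdc probe set exceeded the floor only in pool 1. Opn1mw, the middle-wave opsin, had 274.3, 601.1 and 240.7 and the widest range of the 7, 2.50-fold (limma, unadjusted p = 0.036, adjusted p = 0.833). Pool 2 stood above both other pools for it, whereas Opn1sw was lowest there, and the ratio of Opn1sw to Opn1mw changed 3.03-fold over the pools. The Opn1mw probe set was dim, at 2.73, 4.81 and 2.00 times the floor in pools 1, 2 and 3. It was past 2-fold for pools 1 and 2 and for pools 2 and 3, where 6.24% and 5.1% of measured probe sets were. Guca1a, a calcium sensor that drives guanylate cyclase, had 1251.2, 1606.7 and 1759.6. Gucy2e, that cyclase, had 476.6, 431.6 and 352.8, a range of 1.35-fold. The shut-off proteins Rgs9 and Gnb5, which speed the return of transducin to rest, had 162.3, 167 and 121 and 905.2, 1264.1 and 1295.4, and Rgs9 in pool 3 was only just above the floor of 120.4. Rcvrn (recoverin) had 3980.8, 5474 and 4333.1, and Pdc (phosducin, which binds the beta and gamma subunits) 19346.5, 21872.6 and 21449.3. These last 6 genes serve rods too, so they do not mark cones. Arr3, Pde6c, Pde6h and Cngb3, which are cone genes, were not named on the array.

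Of the factors that direct cone and photoreceptor fate, 10 of 13 had a probe set. By the brightest probe set 9 were above the floor in every pool, against 57.9% of all gene probe sets. None was called (limma, 0 with an unadjusted p under 0.05). Another probe set of Rora and another of Nr2f2 were above the floor on no array. Crx had 9534.7, 8344.9 and 7996.3, a range of 1.19-fold, with pool 1 highest. Thrb, the receptor needed for the middle-wave opsin, had 171.6, 167.5 and 369.7, a range of 2.21-fold that did not pass (limma, adjusted p = 0.987). Rxrg, its partner, had 62.4, 33.2 and 174.6 and exceeded the floor only in pool 3, and with its mean under the floor it was not tested. The median log2 SD of the 9 was 0.20, against 0.27 for all measured probe sets. These medians are not matched for signal, and the fitted SD was 0.43 for Thrb and 0.21 for the brighter Crx.

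Marker genes of other cells differed in signal between these pools, and their values stand here beside those of the cone genes. All 7 rod markers with a probe set were above the floor and highest in pool 2, with summed signals of 49118, 67753 and 58262 in pools 1, 2 and 3. By their brightest probe set, all 11 measured lens markers were lowest in pool 2 and highest in pool 3, and the 12 with a probe set summed to 94951, 25486 and 203758. Among dimmer probe sets, another of Crygb kept this order. However, another of Crybb2 was lowest in pool 1 and another of Cryge was highest in pool 2. Of the 11 lens genes 8 were called (limma), against 0.216% of all tested probe sets. No gene of the rod, blood, pigment epithelium or ON bipolar marker lists was called, with 1 gene at an unadjusted p under 0.05 in each of these 4. Blood markers, 3 of 3 above the floor, summed to 20541, 12672 and 10546. Pigment epithelium markers, 4 of 7 above the floor in all pools, summed to 1668, 1657 and 2612, with the dimmer genes of the 7 included. Hba-a1 alone gave 16422.3, 9461.1 and 8110.5 of the blood sums, and Pmel alone 319.7, 327.7 and 908 of the pigment epithelium sums. Such sums do not measure the content of blood or pigment epithelium. Of the 9 cone markers 5 had a probe set and 4 were above the floor in all pools; 2 of these 4 were highest in pool 2, and they and Cnga3 summed to 3798, 4562 and 4143. The part of lens, blood or rod content in the cone gene signals was not tested. In whole retina, a difference in the number of cones and a difference in the RNA of each cone cannot be told apart.

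Likeness of pattern over only 3 pools does not single out genes. It was measured as the root mean square difference of log2 signals, each centred on its own mean, and within 0.1 of Gngt2 lay 1063 of the other 8326 measured probe sets (12.8%). The same limit held 997 (12.0%) for Opn1sw, 553 (6.64%) for Gnb3 and 296 (3.56%) for Gnat2. The nearest named genes were C77080, Immt and Rrbp1 for Opn1sw, 1600012H06Rik, Lamb1 and Cd83 for Gnat2, Kcnj9, Ndn and Slc1a2 for Gnb3, and Mycn, H2ax and Xpo7 for Gngt2. Their differences were at most 0.0068. None of them is another gene of the cascade, and Gnat1 lay 0.10 from Gnat2, further than these. Cnga1 lay closer to Gnat2 than Gnat1 did. Its centred log2 signals in pools 1, 2 and 3 were -0.354, 0.376 and -0.021, against -0.368, 0.422 and -0.055 for Gnat2. In pool 1, Lamb1 (82.1) and Cd83 (79.8) were under the floor of 100.5 and were set to it. Their closeness to Gnat2 therefore depends on the floor.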

How the data were processed

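The deposited table holds a single intensity for each probe set on each array, in linear units. How the authors computed it (program, release, background correction) is not given in the sources used here. Means after trimming 2% at each end were 500.26, 500.25 and 500.26, so the intensity values the authors deposited were used without further scaling. Probe sets were named from GEO's platform annotation, with symbols updated by gene identifier (RefSeq, GRCm38.p6), and 66 control probe sets were left out. Signals under the background floor were set to it before log2 was taken. Variability was tested over the 8327 probe sets whose mean exceeded the mean floor of 115.2. The test came from limma 3.58.1 (R 4.3.3) and used a model with an intercept alone, a robust F distribution with an intensity trend fitted to the residual variances, the upper tail p of each variance, Benjamini-Hochberg adjustment and a threshold of 0.05. The test was checked on simulated data. Python 3.11.15, pandas 2.3.3, numpy 2.4.6, scipy 1.17.1 and matplotlib 3.10.9 did the rest. For a gene with several probe sets the brightest was used. The genes named were the 5 members, all cone pathway genes and rod counterparts with a probe set, examples of the fate factors, and the 3 genes nearest in pattern to each detected member. Members, lists and motifs were chosen with earlier results of these data known. At most 9 signals were identical between 2 arrays, so each array counted once. The number of arrays limits the precision. A planned comparison of cone and rod protein sequences was not made here.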

Additional observations from a re-analysis of the deposited data

How the results depend on the processing

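With 3 arrays of 1 group, the spread between pools is the only error that can be given. The 4 detected members stayed 4 with the floor at the median or the highest control, after quantile normalization and without each pool in turn (4 to 4). The lower floor and a pool left out could not change this count. The 4 were above the floor on all 3 arrays, and Cnga3 was under the median control on each. No member was called in any of 11 alternatives (0 to 0 without each pool), with limma adjusted p from 0.821 to 0.998 over the alternatives. Gngt2 was tested in 10 of the 11, since it was left out where only the brightest 25% were kept. No member passed 2-fold in any of 7, but a pool left out, the lower floor or the added 50 could not widen a difference for these detected genes. The largest log2 difference ranged from 0.31 to 0.79 for Gnat2, 0.02 to 0.48 for Gnb3, 0.04 to 0.24 for Gngt2 and 0.11 to 0.29 for Opn1sw, and the low ends of the first 2 came from leaving out pool 2. Among the rod counterparts the 1 call, Gnb1, became 0 with the floor at the median control, with no floor and log2(signal + 50), after quantile normalization, with a fit that was not robust and without the trend on intensity, and it ranged from 0 to 1 when each pool was left out, with 0 without pool 3; the cause was not tested. No cone pathway gene or fate factor was called under any of the 11. No paired analysis was possible because there was 1 group.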
